A study of Mus musculus with 6 samples.

Results

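MHC class I molecules present short peptides from inside the cell to CD8+ T cells. Each molecule is a heavy chain bound to the light chain B2m. The peptides are cut by the proteasome, in part by immunoproteasome subunits such as Psmb8 and Psmb9, carried into the endoplasmic reticulum by the Tap1-Tap2 transporter, and loaded with the help of tapasin (Tapbp). Interferons raise the transcription of much of this pathway through factors that include Irf1, Irf7 and Nlrc5. The genes described here are these 9, taken from 19938 genes measured on whole-transcript Affymetrix arrays. Each gene is represented by the probe set that carries only its symbol in the platform annotation and has the highest mean intensity over the 6 arrays. All 9 had such a probe set.

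The prostates came from 4-week-old mice carrying an AR3 transgene (3 mice) and from wild-type littermates (3 mice), with 1 array per mouse. AR3 is a splice variant of the androgen receptor that lacks the ligand-binding domain. The labels name no strain and no promoter for the transgene, and its own level was not analysed here. All values are intensities on a linear scale, and the precision of every value is limited by 3 arrays per genotype. No detection calls were used. As a scale of background, the 95th percentile of 1023 olfactory receptor probe sets lay between 66.6 and 91.8 on the 6 arrays, and the mean of each of the 9 probe sets lay above it. The arrays carried strong signal for prostate epithelial genes, among them the secretory genes Pbsn (9343 ± 366 in wild-type, SD, n = 3) and Tgm4 (14092 ± 700.4, SD, n = 3).

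The 9 genes were chosen by name with earlier intensities of these same 6 arrays in view, in which B2m and Irf7 were already known to pass the test, and each probe set was selected on its mean intensity. Their changes are therefore a description and support nothing further. Changes are differences of log2(intensity + 16), transgenic minus wild-type, with their standard error (SE), and adjusted p-values are those of limma over all 28944 probe sets. Of the 9 genes, 2 were called higher at an adjusted p of 0.05 (B2m and Irf7), none was called lower, and 7 did not pass. Over all genes 1.18% were called higher and 0.456% lower, and 1.47% of all probe sets were called in either direction. An unadjusted p under 0.05 with a higher transgenic mean was found for 3 of the 9 (B2m, Irf7 and Psmb9) and for 6.91% of all genes. The change was positive in 8 of the 9 genes, against 53.9% of all genes, with a median of 0.17 against 0.01.

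Upstream regions are shown for B2m and Irf7, the called genes, for Irf1, whose 2 probe sets differ in sign, and for Psmb9 and Tap1, which share a stretch between divergent starts, so that the letters can be read beside the expression values. They are the 250 bases before the RefSeq start site in assembly GRCm38.p6, or for Psmb9 and Tap1 the 225 bases between their starts. The upstream sequences at hand covered 7 of the 9 genes, without Tap2 and Nlrc5. Capitals mark matches on either strand to 5 motifs: the ISRE core (GAAA, any 2 bases, GAAA), the GAS element TTCNNNGAA, the NF-kappaB site, the CCAAT box (CCAAT) and the CRE half-site (TGACG).
B2m, chr2:122147437-122147686, plus strand: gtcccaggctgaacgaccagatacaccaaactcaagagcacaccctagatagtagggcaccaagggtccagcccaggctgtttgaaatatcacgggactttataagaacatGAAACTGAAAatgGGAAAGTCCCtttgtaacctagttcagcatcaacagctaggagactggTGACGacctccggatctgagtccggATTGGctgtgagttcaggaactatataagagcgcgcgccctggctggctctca
Irf7, chr7:141266425-141266674, minus strand: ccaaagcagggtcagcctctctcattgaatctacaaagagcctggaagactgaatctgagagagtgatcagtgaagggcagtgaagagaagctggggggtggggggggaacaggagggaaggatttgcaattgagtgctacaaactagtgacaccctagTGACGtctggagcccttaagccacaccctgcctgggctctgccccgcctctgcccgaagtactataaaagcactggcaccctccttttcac
Irf1, chr11:53769764-53770013, plus strand: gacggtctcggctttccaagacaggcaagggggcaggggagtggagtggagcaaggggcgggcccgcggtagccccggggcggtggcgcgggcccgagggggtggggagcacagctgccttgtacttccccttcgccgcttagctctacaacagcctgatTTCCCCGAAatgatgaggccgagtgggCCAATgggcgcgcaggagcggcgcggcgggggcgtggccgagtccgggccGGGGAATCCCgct
Psmb9 to Tap1, chr17:34187331-34187555, plus strand: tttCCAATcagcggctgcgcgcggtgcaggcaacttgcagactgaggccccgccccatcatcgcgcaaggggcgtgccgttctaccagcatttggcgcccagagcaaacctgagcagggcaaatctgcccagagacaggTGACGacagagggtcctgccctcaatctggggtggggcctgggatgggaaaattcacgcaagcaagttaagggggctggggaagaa

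The B2m window held 4 of the 5 motifs, an ISRE core at 139 to 130 bases before the start, an NF-kappaB site at 126 to 117, a CRE half-site at 78 to 74 and a CCAAT box at 53 to 49. The Irf7 window held only a CRE half-site among the 5 motifs. The Irf1 window, which belongs to the upstream of its 2 listed starts, held a GAS element at 90 to 82 bases, a CCAAT box and an NF-kappaB site. The window of its other start, not shown, held none of the 5 motifs. The stretch shared by Psmb9 and Tap1 held a CRE half-site and a CCAAT box. The Psmb8 window, not shown, held a GAS element at 97 to 89 bases. Among 32817 listed windows of 250 bases, 2.97% held the ISRE core, 7.01% the GAS element, 3.90% the NF-kappaB site, 33.8% the CCAAT box and 17.7% the CRE half-site. These matches describe letters, and a motif that is not matched says only that its letters are not in the window.

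B2m, the light chain shared by all class I molecules, stood at 7897, 7749.6 and 8247 in wild-type mice 1, 2 and 3, and at 11481.5, 11337 and 11575 in transgenic mice 1, 2 and 3. The genotypes did not overlap, and the transgenic mice lay close together. The change was 0.53 ± 0.07 (SE), a 1.44-fold difference of means on the log scale, with an adjusted p of 0.011 (limma). The call was lost without wild-type replicate 2 (adjusted p 0.066) or without transgenic replicate 1 (0.062), 2 (0.065) or 3 (0.080), with the change staying between 0.51 and 0.53 in those 4 fits. Over all alternatives it ran from 0.49 to 0.55.

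Irf7, the interferon-induced factor that amplifies type I interferon transcription, stood at 107, 115 and 95.8 in wild-type and at 146, 163 and 174 in transgenic mice. The genotypes did not overlap, and transgenic mouse 1 was the lowest of its group. The change was 0.54 ± 0.10 (SE), with an adjusted p of 0.045 (limma). Leaving out any of the 6 arrays ended the call, with adjusted p between 0.073 and 0.23, as did quantile normalization (0.099), median centring (0.061) and an added constant of 1 (0.072). With an added constant of 64 the change was 0.40 and remained called. Wild-type values of Irf7 lay a little above the background scale.

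**Figure D1:**
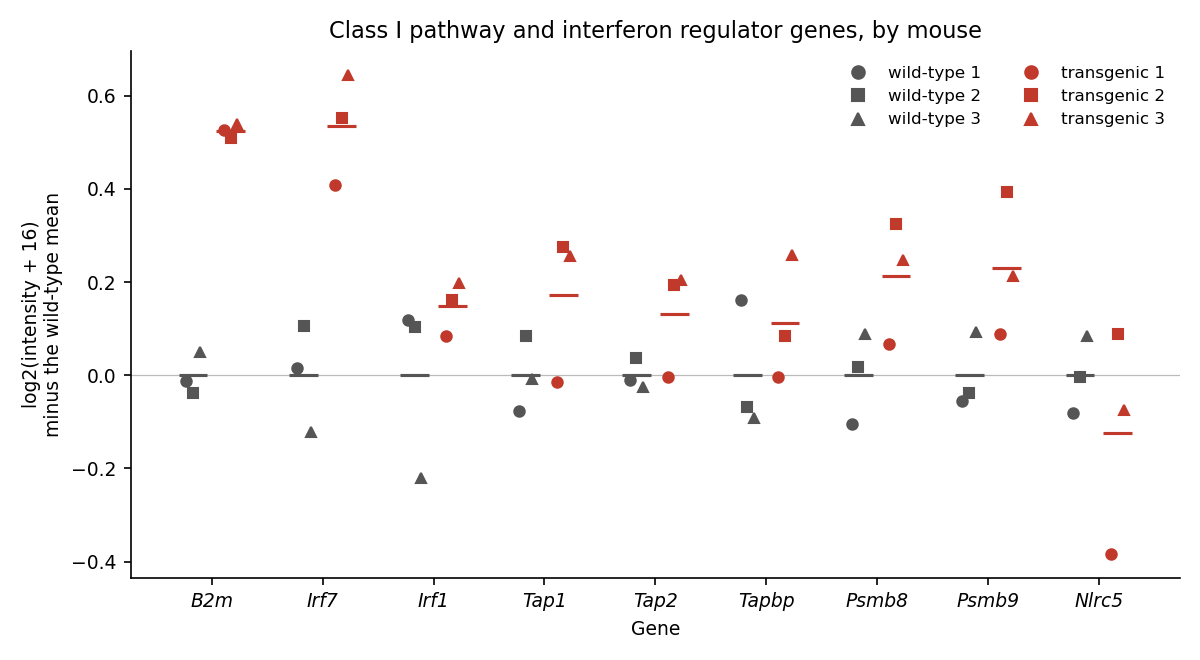
Each point is a mouse, plotted as log2(intensity + 16) minus the wild-type mean of that gene, with wild-type in grey and transgenic in red and horizontal lines at the genotype means. B2m and Irf7 separate the genotypes, while transgenic mouse 1 lies within the wild-type range for Irf1, Tap1, Tap2, Psmb8 and Psmb9.

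Irf1, which activates class I and immunoproteasome genes downstream of interferon-gamma, stood at 198, 196 and 153 in wild-type and at 193, 205 and 211 in transgenic mice. The genotypes overlapped, and wild-type mouse 3 was the lowest of all. The change was 0.15 ± 0.11 with an adjusted p of 0.64. A second Irf1 probe set gave the opposite sign, at 90.6, 92.0 and 114 in wild-type and 78.8, 79.1 and 76.1 in transgenic mice. Here the transgenic values all lay below the wild-type ones, with a change of −0.29 ± 0.10 and an adjusted p of 0.29. Its wild-type and transgenic values were at or near the background scale, and a change of sign between probe sets leaves the direction for Irf1 unsettled.

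Tap1 and Tap2 form the peptide transporter of the endoplasmic reticulum. Tap1 stood at 183, 207 and 193 in wild-type and at 192, 238 and 235 in transgenic mice. Tap2 stood at 299, 309.9 and 296 in wild-type and at 301, 347 and 350.04 in transgenic mice. For both genes transgenic mouse 1 lay within the wild-type range and the other transgenic mice lay above it. The changes were 0.17 ± 0.10 (adjusted p 0.55) and 0.13 ± 0.08 (adjusted p 0.59). Tapbp, the tapasin bridge between the transporter and the class I molecule, stood at 1229.8, 1047 and 1029 in wild-type and at 1095, 1165 and 1316 in transgenic mice, with overlap. Its change was 0.11 ± 0.11 (adjusted p 0.72).

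Psmb8 and Psmb9 replace constitutive subunits in the immunoproteasome. Psmb8 stood at 123, 135 and 143 in wild-type and at 140.4, 171 and 161 in transgenic mice. Psmb9 stood at 217, 219.6 and 242 in wild-type and at 241, 301 and 264 in transgenic mice. Again transgenic mouse 1 lay within the wild-type range and the other transgenic mice above it. The changes were 0.21 ± 0.10 (adjusted p 0.43) and 0.23 ± 0.10 (adjusted p 0.41). The 95% confidence intervals ran from −0.01 to 0.44 and from 0.001 to 0.46.

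The pattern in which transgenic mouse 1 lies at or below the highest wild-type value and transgenic mice 2 and 3 lie above it was singled out after the values were seen. It was present in 5 of the 9 genes (Irf1, Tap1, Tap2, Psmb8 and Psmb9) and in 5.27% of all genes. Among the cell type lists it was present in 4 of 8 fibroblast, 3 of 6 smooth muscle and 2 of 15 macrophage genes. It was present in 1 of 12 leukocyte, 1 of 5 basal epithelial and 1 of 6 skeletal muscle genes. The other cell type lists, with 11 endothelial genes among them, had none. Over the pathway lists described below it was present in 19 of 164 genes. These include 5 of 34 interferon-stimulated genes and 0 of 12 heavy chain genes. Psmb9, Tap1, Psmb8 and Tap2 are consecutive protein-coding genes in the RefSeq gene table. Their neighbours in it include the class II genes H2-Ob and H2-Ab1 on the Tap2 side. Of the neighbours, H2-DMa on the Psmb9 side had the pattern, and H2-Ob and H2-Ab1 did not. Irf1, on chromosome 11, had it, and Tapbp, on chromosome 17 like these genes, did not. B2m, on chromosome 2, had its 3 transgenic values within 11337 to 11575. A part of gene position in the pattern was not tested.

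Nlrc5, the transactivator of class I genes, was covered by 19 probe sets with only its symbol. The probe set with the highest mean stood at 318, 336 and 358 in wild-type and at 255, 359 and 319 in transgenic mice. Transgenic mouse 1 was the lowest of the 6 and transgenic mouse 2 the highest. The change was −0.12 ± 0.13 (adjusted p 0.75), and without transgenic replicate 1 it was 0.0071. None of the 19 probe sets passed the threshold (limma), while 6 had an unadjusted p under 0.05, of which 5 were positive. Changes ran from −0.61 to 0.48 with a median of 0.04, and 12 were positive and 7 negative. In 5 probe sets all transgenic values lay above all wild-type values, and in 1 they lay below, at 206, 176 and 241 in wild-type and 105, 152 and 135 in transgenic mice (change −0.61 ± 0.15, adjusted p 0.14). Across all genes 10.5% showed the first separation and 8.61% the second. The 5 probe sets whose means lay above the background scale on every array did not include any of the 5 with transgenic values above wild-type.

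**Figure D2:**
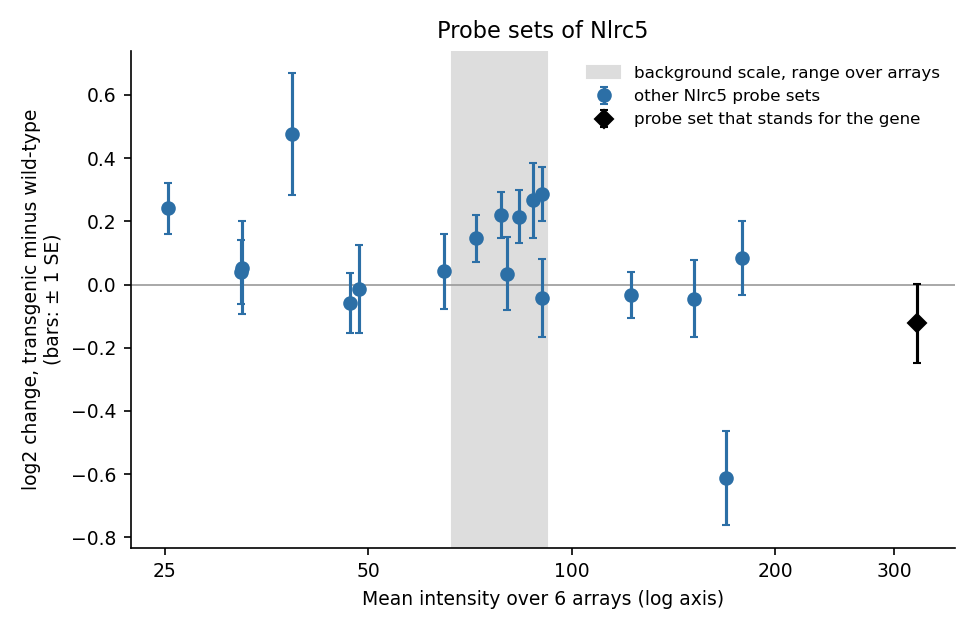
Each point is an Nlrc5 probe set, with its mean intensity over 6 arrays on a log axis and its log2 change with 1 SE, and the grey band spans the background scale of 66.6 to 91.8. The changes scatter around 0 with a median of 0.04, and the probe set with the lowest change, −0.61, lies above the band.

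The heavy chains that pair with B2m were not among the 9 genes and were read from the same fit. The 22 heavy chain genes listed include 12 with a probe set of their own, of which 1 was called higher, none lower and 11 did not pass. Among all genes 1.18% were called higher and 0.456% lower. The called gene was H2-Q2, a Qa-region class I gene, at 609, 609 and 629.9 in wild-type and 992, 1011 and 1095 in transgenic mice. Its genotypes did not overlap, and its change was 0.73 ± 0.08 (SE) with an adjusted p of 0.0026 (limma), called in all 14 alternatives. H2-Q4 stood at 394 ± 63.3 (SD, n = 3) and 600.6 ± 67.7, with a change of 0.59 ± 0.13 and an adjusted p of 0.095 that fell below 0.05 in 4 alternatives. H2-M3, which presents formylated peptides, had a change of 0.39 ± 0.13 and an adjusted p of 0.28. H2-T24 had a change of −0.30 ± 0.09 and an adjusted p of 0.25. The median change of the 12 genes was 0.18, against 0.01 over all genes, and 6 of the 12 had means below the background scale.

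The classical heavy chains H2-K1 and H2-D1 had no probe set of their own. The platform annotation gave 2 probe sets several symbols from this classical group at once, so that neither names a single gene. The probe set 10450075 stood at 1175, 1229.5 and 1279 in wild-type and at 2279, 2441 and 2396 in transgenic mice, with no overlap. Its change was 0.94 ± 0.07 with an adjusted p of 6.2e-04 (limma), and it was called in all 14 alternatives. The probe set 10444780 stood at 2965, 2891 and 3046 in wild-type and at 4178, 4143 and 4483 in transgenic mice, again with no overlap. Its change was 0.52 ± 0.07 with an adjusted p of 0.014 (limma), a call that ended when wild-type replicate 2 (0.082) was left out, or transgenic replicate 1 (0.066), 2 (0.068) or 3 (0.098). The other 5 shared heavy chain probe sets did not pass, with changes between 0.08 and 0.48. Over all probe sets 1.05% were called higher. Near-identical heavy chain genes can share signal on these probe sets, and no attempt was made to separate it. Mouse strains carry different class I alleles, and the labels give no strain.

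**Figure D3:**
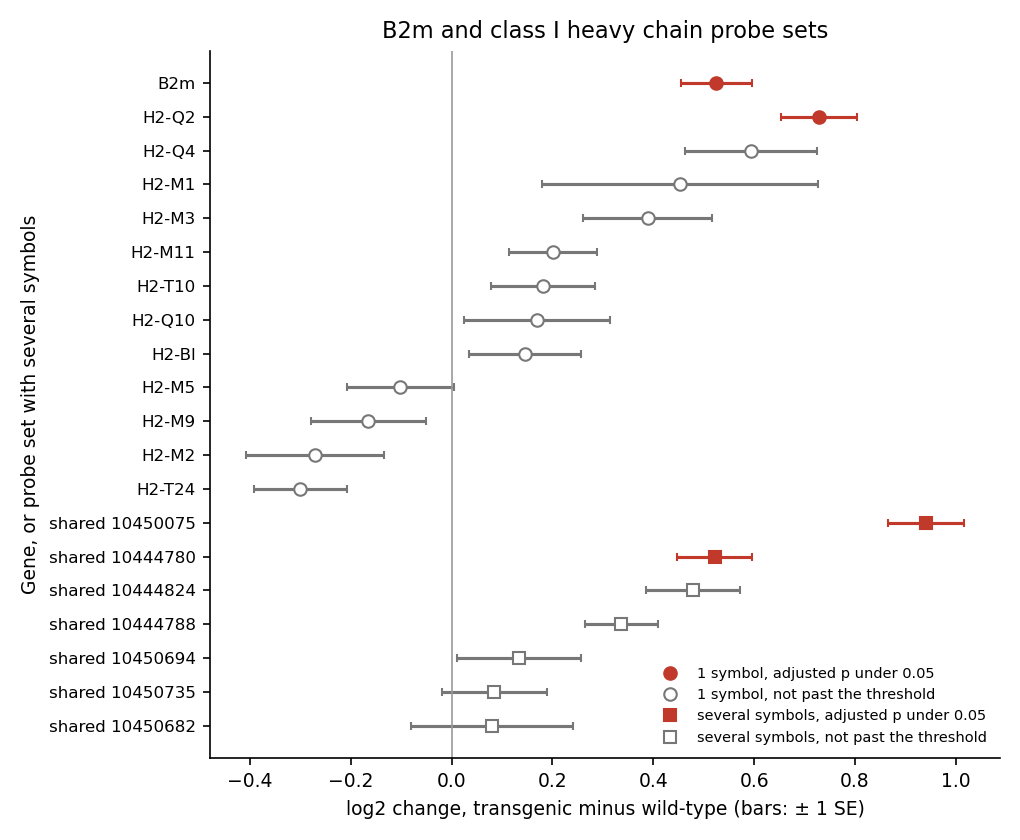
Points are log2 changes with 1 SE for B2m, for 12 heavy chain genes with a probe set of their own (circles) and for 7 probe sets with several heavy chain symbols (squares), filled red where the adjusted p was under 0.05. B2m (0.53), H2-Q2 (0.73) and 2 shared probe sets (0.94 and 0.52) pass the threshold, and the remaining points spread from −0.30 to 0.59.

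The class I-like molecules that also pair with B2m showed no call among 4 measured genes. Mr1, which presents microbial vitamin metabolites, stood at 748 ± 72.1 and 935 ± 42.8 (SD, n = 3), with a change of 0.32 ± 0.09 and an adjusted p of 0.21. Cd1d2, a lipid-presenting molecule, had a change of 0.57 ± 0.16 (adjusted p 0.20), and the iron regulator Hfe of 0.29 ± 0.10 (adjusted p 0.32). In these 3 genes all transgenic values lay above all wild-type values, a separation seen in 10.5% of all genes.

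Further steps of the class I route showed no call. Of 8 peptide loading and trimming genes none passed, and their median change was 0.02. The glycoprotein quality sensor Uggt1 had a change of −0.19 ± 0.07 (adjusted p 0.33), the only one of the 8 with an unadjusted p under 0.05. Of 4 immunoproteasome partners none passed. Psmb10, the third inducible catalytic subunit, stood at 140.3 ± 5.52 and 138 ± 5.30 (SD, n = 3), a change of −0.02 ± 0.07 (adjusted p 0.95). The proteasome activator subunit Psme1 had a change of 0.19 ± 0.07 (adjusted p 0.35). Of 14 constitutive core subunits none passed, with a median of 0.004. The core subunits Psmb4 (0.29 ± 0.08, adjusted p 0.21) and Psma4 (−0.24 ± 0.09, adjusted p 0.33) had the smallest p in each direction.

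The factors that Nlrc5 works with on class I promoters, together with the class II transactivator Ciita, gave no call among 9 genes. Rfxap, a subunit of the X-box binding complex, had a change of −0.21 ± 0.09 (adjusted p 0.38), and Ciita of 0.09 ± 0.09 (adjusted p 0.74) at means of 65.3 and 70.7, within or below the background scale. Of 7 class II presentation genes none passed. H2-Aa, the nearest to the threshold, stood at 187, 144 and 148 in wild-type and at 254, 383 and 469 in transgenic mice, with a change of 1.10 ± 0.21 and an adjusted p of 0.057 that fell below 0.05 in 6 alternatives. H2-Ab1 (0.90 ± 0.23, adjusted p 0.16) and the invariant chain Cd74 (0.87 ± 0.23, adjusted p 0.17) also had all transgenic values above all wild-type values, and the adjusted p of each fell below 0.05 in 1 alternative. This separation was present in 4 of the 7 genes, against 10.5% of all genes. The fourth of them, H2-Ob, had a mean of 61.4, below the background scale. H2-Ab1 stood at 96.9, 60.7 and 59.4 in wild-type mice, so that mice 2 and 3 lay below that scale. H2-Eb1 had a change of −0.11 ± 0.11 and H2-Oa of 0.04 ± 0.14, both with means below the background scale.

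Upstream of the regulators, no interferon ligand was called among 16 measured genes, 10 of which had means below the background scale. Ifng stood at 41.8 ± 4.52 and 40.3 ± 5.64 (SD, n = 3) and Ifnb1 at 45.4 ± 12.7 and 48.6 ± 14.4, all below it. Of 14 receptor and JAK-STAT genes none passed. The kinase Jak2 stood at 402, 409 and 366 in wild-type and 492, 519 and 548 in transgenic mice, without overlap, with a change of 0.39 ± 0.08 and an adjusted p of 0.083 that fell below 0.05 in 4 alternatives. Of 6 further interferon regulatory factors none passed. Irf9, the DNA-binding partner of the STAT complex that binds ISREs, stood at 299.8 ± 33.4 and 375 ± 21.8 (SD, n = 3), with a change of 0.31 ± 0.10 and an adjusted p of 0.25. Of 15 nucleic acid sensors and adaptors none passed. The RNA sensor Ddx58 had a change of 0.42 ± 0.09 and an adjusted p of 0.091, which fell below 0.05 in 4 alternatives. None of 7 NF-kappaB genes passed, and the inhibitor Nfkbia had a change of 0.21 ± 0.07 (adjusted p 0.30).

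Downstream, 1 of 34 measured interferon-stimulated genes (2.94%) was called higher and none lower. Among all genes 1.18% were called higher and 0.456% lower. Ly6e, a GPI-anchored surface protein that is also known as an antigen of progenitor cells, stood at 2782, 2875 and 2856 in wild-type and 4564, 4655 and 4776 in transgenic mice, without overlap. Its change was 0.71 ± 0.07 with an adjusted p of 0.0018 (limma), called in all 14 alternatives. The membrane restriction factor Ifitm3 had a change of 0.50 ± 0.12 (adjusted p 0.12). Rtp4 (−0.25 ± 0.07, adjusted p 0.21) and Lgals3bp (−0.33 ± 0.09, adjusted p 0.17) had negative changes. The list median was 0.11.

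None of 14 interferon-gamma GTPases and chemokines passed the threshold (limma). An unadjusted p under 0.05 with a higher transgenic mean was found for 4, against 6.91% of all genes. All 14 changes were positive, against 53.9% of all genes. Their median was 0.30, but 10 of the 14 means were not above the upper end of the background scale. The immunity GTPase Irgm1 stood at 168, 142 and 115 in wild-type and 204, 233 and 253 in transgenic mice, without overlap. Its change was 0.65 ± 0.14 with an adjusted p of 0.084, and fell under 0.05 in 4 alternatives. The guanylate-binding protein Gbp7 stood at 71.6, 74.1 and 74.8 in wild-type and at 72.7, 114 and 127 in transgenic mice. Its adjusted p was 0.39 with all arrays and 0.041 without transgenic replicate 1. The same pattern, with transgenic mouse 1 at or below the highest wild-type value and the other transgenic mice above it, was present in 8 of these 14 genes, against 5.27% of all genes. As given above, some fibroblast, smooth muscle, macrophage and interferon-stimulated genes also showed it, and its cause was not tested.

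Over the 14 lists, 2 of 164 measured genes were called (1.22%), both higher, against 1.64% of all genes called in either direction. That share was near the background. Positive changes were found in 113 of the 164 genes, or 68.9%, against 53.9% of all genes, and the median change was 0.07.

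**Figure D4:**
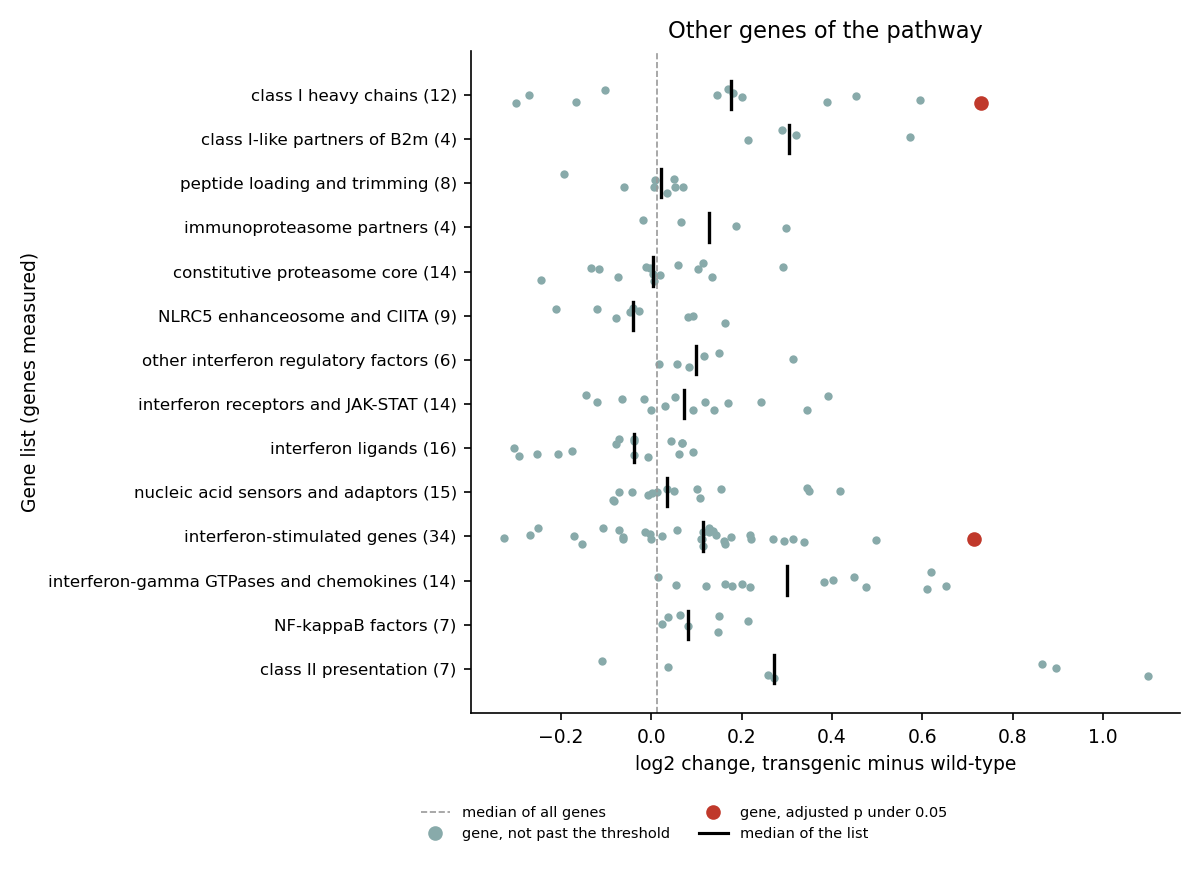
Each point is the log2 change of a gene, by list, with the number of genes measured in brackets, the list median as a black bar and the median of all genes (0.01) as a dashed line. H2-Q2 and Ly6e, in red, are the 2 genes past the threshold, and all 14 interferon-gamma GTPases and chemokines lie above 0.

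Class I genes are made by most cells, and in whole tissue a different number of cells of a type and a different RNA content per cell cannot be told apart. The summed intensity of 12 general leukocyte genes lay between 2326 and 2559 in wild-type and between 3020.4 and 3187 in transgenic prostates. Cd52, which the male genital tract epithelium also makes, was the called gene among them (1.43 ± 0.23, adjusted p 0.029). Without Cd52 the sums were 1969 to 2024 and 1982 to 2095 and overlapped. Lcp1, with means of 1040 in wild-type and 1022 in transgenic mice, was the largest part of these sums. Of the 12 changes 9 were positive and 3 negative, with 53.9% positive over all genes. An unadjusted p under 0.05 (limma) with a higher transgenic mean was found for 3 of the 12, against 6.91% of all genes. The defining leukocyte gene Ptprc stood at 87.8 ± 19.8 and 95.3 ± 7.30 (SD, n = 3), near background. The sums of 15 macrophage genes lay between 2033 and 2192 in wild-type and 2321 and 2617 in transgenic mice without overlap, although none of the 15 was called. For 11 T cell, 10 NK cell, 7 B cell and 9 dendritic cell genes the sums overlapped between genotypes and no gene was called. Only 2, 1, 1 and 2 of these genes had means above the background scale. These sums are therefore mostly near background, and their overlap says little about the cells. The sums of 11 endothelial genes lay between 1282 and 1439 in wild-type and 1530.4 and 1602 in transgenic mice. Among these, the junction gene Cdh5 was called higher (0.93 ± 0.12, adjusted p 0.0096), and without it the sums were 1206 to 1332 and 1362 to 1415, still without overlap. The sums of 8 fibroblast genes ranged from 4090.03 to 5853 and from 5459 to 7889, with transgenic mouse 3 the highest. Dcn, with means of 2623 and 3061 and a change of 0.22 ± 0.13, was the largest part of them. All 8 changes were positive, with a median of 0.55 against 0.01 over all genes. None was called, and 4 had an unadjusted p under 0.05 (limma). The sums of 10 prostate epithelial genes lay between 45415 and 46420.5 in wild-type and 42442 and 42609 in transgenic mice. Without the secretory gene Sbp, the called gene among them (−0.91 ± 0.09, adjusted p 0.0017), they were 37669 to 39110.1 and 38275 to 38491 and overlapped. For 7 seminal vesicle genes, which mark neighbouring tissue, the sums ranged from 690.2 to 4801 and from 1604 to 8953, with overlap. Single genes of this list differed, as Svs3a was called lower (−1.43 ± 0.22, adjusted p 0.019, limma). Pate4 was higher in every transgenic mouse but not called (3.88 ± 1.09, adjusted p 0.20, limma). The part of these cell types in the B2m, Irf7 and heavy chain differences was not tested.

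**Figure D5:**
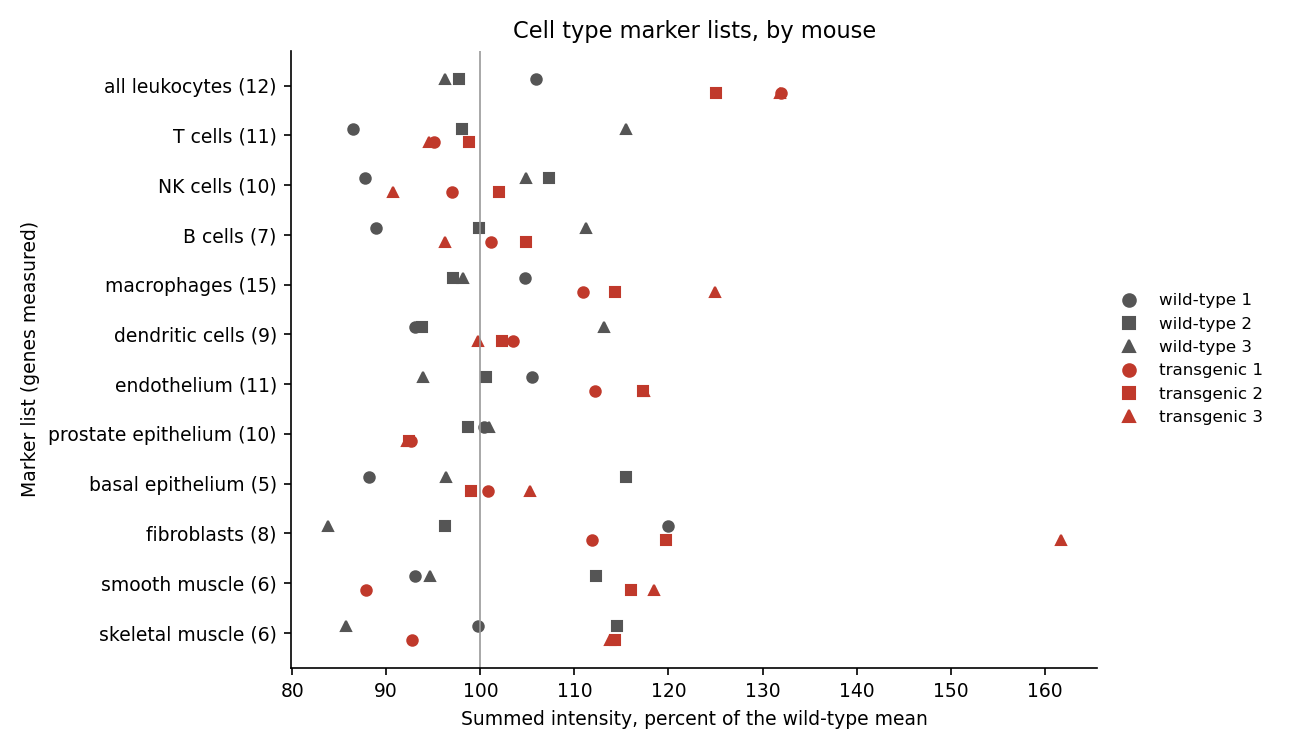
Points give the summed intensity of each marker list per mouse, as a percent of the wild-type mean of that list, without the seminal vesicle list, whose range is far wider. Leukocyte, macrophage and endothelial sums are higher in every transgenic mouse and prostate epithelial sums lower, with Cd52 included among the 12 leukocyte genes and Sbp among the 10 prostate epithelial genes.

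The genes whose log2 values were most like those of B2m over the 6 arrays, among 11212 others with a mean above 100, were Ffar4, Gstm5, Pcsk5, Klk1b24 and Nmb, with Pearson r between 0.997 and 0.999. Of these, Ffar4, Pcsk5, Klk1b24 and Nmb had wild-type values within or below the background scale. They reached a mean above 100 only through their transgenic values, so their r mainly restates the genotype difference. Among the other 8 genes of the set, Irf7 had the highest value, r = 0.92 at rank 389, followed by Psmb9 (0.77) and Psmb8 (0.76), and Nlrc5 had the lowest (−0.38). After each genotype's mean was taken out, the most similar genes were Lin52, Tmem260, Gm5535, Pon3 and Sh2d5, with r between 0.984 and 0.995, and for Irf7 and Irf1 r was −0.60 and −0.84. These are descriptions over 6 arrays that share their genotype difference, and they carry no test.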

How the data were processed

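Total RNA of dissected prostates was biotin-labelled with a whole-transcript kit, per the labels' protocols. The deposited table held 1 intensity per probe set and array on a linear scale, from 0.87 to 21952. How the authors summarised, background-corrected and normalized the arrays is not given in the sources read. The values were used as deposited.

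Of 35512 probe sets, 6568 with identifiers below 10344614, which the platform is known to use for controls, were left out. Symbols came from the platform annotation: 21789 of the 28944 tested probe sets had 1 symbol, 1621 several and 5534 have none here. Symbols were updated through RefSeq (GRCm38.p6), which matched 21698. Probe sets with several symbols name no gene.

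The test was limma 3.58.1 (lmFit, then eBayes; R 4.3.3) on log2(intensity + 16), 3 against 3 arrays, as a two-sided test. P-values were adjusted over all tested probe sets by the Benjamini-Hochberg method. Tables were made in Python 3.11.15 with pandas 2.3.3. The added constant understates changes of dim genes. The fit was tested on simulated data. An exact permutation test of 3 against 3 cannot go below 0.1, so none was used. No array batch was used here. The labels name each sample as a separate mouse.

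The 9 genes and the lists (14 of the pathway, with 164 of 198 genes measured, and 13 of cell types, with 117 of 122) were chosen with earlier results of these data known. Of the lists, genes past the threshold and up to 4 others with the smallest p could be named, together with the 5 most similar to B2m. H2-K1 and H2-D1, which the rule named, were described only through shared probe sets, and not every gene it allowed is reported. The alternatives were added constants of 1 and 64, quantile normalization, centring on the array median, a filter that removed the dimmest 40% of probe sets, array weights, robust variances with an intensity trend, blocking on the mouse number, the mean of all probe sets of a gene, and each array left out. Their use on the named list genes and shared heavy chain probe sets, and marker sums without a called gene, were added after seeing the data.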

Additional observations from a re-analysis of the deposited data

How the results depend on the processing

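B2m and Irf7 kept a positive change under every one of the 14 alternatives, at 0.49 to 0.55 and 0.40 to 0.60. Of the 9 genes, the number called was 2, and it was 1 with an added constant of 1, with quantile normalization and with median centring. Leaving out single arrays gave 0 to 1. Over all probe sets 425 were called, 305 higher and 120 lower. The count was 678 with an intensity trend and robust variances, 1202 with array weights, and 234 to 519 without single arrays. Median centring gave 314 higher and 264 lower. Of the 164 pathway genes 2 were called, against 7 with an added constant of 64, 5 without the dimmest 40% of probe sets, 9 with a trend and robust variances, 15 with array weights, and 2 to 5 without single arrays. Irf1 was at −0.068 as the mean of its 2 probe sets. Nlrc5 was at 0.062 as the mean of its 19 probe sets, and without single arrays it ran from −0.23 (without transgenic replicate 2) to 0.0071 (without transgenic replicate 1). Without single arrays Psmb10 ran from −0.043 (without wild-type replicate 1) to 0.0095 (without transgenic replicate 2) and was at 0.0078 without wild-type replicate 2. The causes were not tested. In the fit with a replicate block on mouse number, 0 of the 9 genes were called (B2m 0.081, Irf7 0.17), 250 of all probe sets and 2 of the pathway genes, and the shared heavy chain probe set 10444780 lost its call (0.083). Over probe sets, deviations from the genotype mean correlated at −0.04, 0.05 and −0.16 between same-numbered mice. Pairs with different numbers ran from −0.14 to 0.18. Deviations within a genotype sum to 0, so these values cannot settle whether mice of the same number were paired. With 3 arrays per genotype and no detection calls, values near the background scale limit what Ciita, the interferon ligands, the GTPases and most Nlrc5 probe sets can show. The same limit holds for most T, NK, B and dendritic cell genes.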
